A study of Mus musculus with 536 samples.

Results

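The genes described are those of the cytosolic ribosomal proteins, the Rps genes of the small subunit, the Rpl genes of the large subunit and the Rplp genes of its stalk. Members were chosen by symbol: Rps or Rpl with a number and at most an a, x or y, Rplp0 to Rplp2, or Rpsa, on a probe set annotated with a single gene, with Rpl22l1 left out. The rule gave 41 genes of the 12393 genes on the array, 19 of the small subunit, 20 of the large subunit and 2 of the stalk. Where a gene had several probe sets, the brightest on average was read. A further 27 ribosomal protein genes, Rpl5, Rpl10 and Rpl26 among them, were named only on probe sets shared with other genes, and those probe sets are given as counts.

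Ribosomal proteins assemble with ribosomal RNA in the nucleolus into the subunits that translate mRNA in the cytoplasm. Their mRNAs are among the most abundant in dividing and biosynthetically active cells, and most begin with a C followed by a run of pyrimidines, the 5′ terminal oligopyrimidine tract, through which their translation is controlled by nutrient and growth signals. In blood, lymphocytes carry much of this mRNA, mature neutrophils carry little, and reticulocytes, the young red cells that have lost their nucleus, carry what was left from the erythroblast. Mutations in several of these genes cause Diamond-Blackfan anaemia, a failure of red cell production.

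The study profiled peripheral blood of C57BL/6 mice, 10 to 12 weeks old and of both sexes, taken by terminal cardiac puncture after total body irradiation with a caesium source at 480 cGy per min or after no irradiation. RNA from blood held in PAXgene fluid was depleted of globin mRNA and hybridised to 536 arrays of the Mouse 430A 2.0 type, 534 of which are single mice and 2 repeat scans that were averaged with their first scan. The labels gave 4 sets of mice. The dose and time set comprised 240 mice, 5 in each of 48 groups, given 0 cGy or 1 of 7 doses (100, 200 and 300 cGy; 450, 600 and 800 cGy; 1050 cGy) and bled at 6, 24, 48, 72, 120 or 168 hr. The sex and treatment set comprised 226 mice, 3 to 5 in each of 48 groups, females and males at 0, 200, 300 or 600 cGy, with no agent, GCSF (granulocyte colony-stimulating factor, which drives neutrophil production) or LPS (lipopolysaccharide, the bacterial endotoxin that provokes inflammation), bled at 6 or 24 hr. A small treatment set of 50 mice in 9 groups of 5 or 6 had 0, 150 or 600 cGy with no agent, GCSF or LPS at 6 hr. A small late set of 18 mice held 3 mice at 0 cGy and 10 at 150 cGy bled at 7 days, beside controls bled at 6 and 24 hr. Sex was labelled only in the sex and treatment set. The labels do not state when or at what dose the agents were given.

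All values are log2 array signals, so a difference of 1 is a doubling or halving. A gene was called when the moderated test passed a Benjamini-Hochberg adjusted p of 0.05 over all 12393 genes. In the dose and time set a gene rose or fell with dose when the slope of its group means on dose passed, and its size is given as the difference between 600 and 0 cGy with its standard error. All doses at a time were compared with the same 5 unirradiated mice. Array medians lay between 5.608 and 5.926. RNA of whole blood was measured, so fewer cells of a type and less RNA per cell cannot be told apart.

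At 6 hr after irradiation most ribosomal protein genes were lower at every dose. With dose, 30 of 41 members fell and 0 rose, against 18.5% of all genes falling and 16.2% rising, and the median difference between 600 and 0 cGy was -0.70 over the members and 0.13 over all genes. Already at 100 cGy 23 members were lower than in the unirradiated mice (17.4% of all genes were), with a median of -0.46, and at 1050 cGy 33 were lower (23.4% of all genes), with a median of -0.74. Of the small subunit genes 15 of 19 fell, and of the large subunit genes 15 of 20. Neither stalk gene was called.

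The largest decline at 6 hr was in Rps6, the small subunit protein phosphorylated by S6 kinase when growth signals are active. Its values were 7.68, 7.68, 8.0, 7.86 and 7.59 in the 5 unirradiated mice and 6.21, 5.76, 6.32, 5.50 and 6.64 in the 5 mice given 600 cGy. Every irradiated mouse lay below every control, and the difference was -1.68 ± 0.21 (SE, n = 5 per group, limma adjusted p 6.99e-12). The other probe set of Rps6 disagreed at 0.42, and was the dimmer (mean 5.18 against 7.33). Rps18, a protein of the head of the small subunit, read 12.44, 12.52, 12.82, 12.44 and 12.39 without irradiation. After 600 cGy it read 10.99, 10.65, 10.82, 10.61 and 11.26, a 3.15-fold fall of -1.66 ± 0.26 (limma adjusted p 2.8e-08). The groups did not overlap, and within each of the 5 values of a code in the array names (its meaning is not given in the labels) the difference was negative, from -2.01 to -1.13. The other bright probe sets of Rps18 gave -1.69 and -1.46, and its dim ones (means of 3.45 to 5.7) gave 0.07 to 0.33.

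Rpsa, a small subunit protein also known as the laminin receptor, read 12.64, 12.45, 12.72, 12.45 and 12.50 at 0 cGy and 11.20, 11, 10.93, 10.90 and 11.37 at 600 cGy at 6 hr. Rps4x, the X-linked small subunit protein, read 12.57, 12.62, 12.79, 12.70 and 12.63 at 0 cGy and 11.24, 11.01, 11.26, 10.90 and 11.71 at 600 cGy. Rpl11, which with Rpl5 and 5S RNA binds the p53 inhibitor Mdm2, read 11.06, 11.05, 11.38, 10.86 and 10.83 at 0 cGy and 9.51, 9.83, 9.70, 8.97 and 10.14 at 600 cGy. In each of these genes all irradiated mice were below all controls, by -1.47 for Rpsa, -1.44 for Rps4x and -1.40 for Rpl11 in the group means. Second probe sets disagreed, at 0.11 for Rpsa and 0.745 for Rps4x. These were dim, with means of 4.11 and 5.68 against 12.22 and 12.41 for those read. Rps19, the gene most often mutated in Diamond-Blackfan anaemia, fell by 1.21.

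Other members did not pass at this time. Rplp0, the stalk scaffold widely used as a reference gene, read 13.58, 13.51, 13.62, 13.48 and 13.58 at 0 cGy and 13.45, 13.62, 13.59, 13.52 and 13.45 at 600 cGy, and the groups overlapped. Rps24, a small subunit protein needed for processing of the 18S rRNA precursor, read 13.49, 13.55, 13.67, 13.48 and 13.42 without irradiation. At 600 cGy it read 13.20, 13.24, 13.29, 13.13 and 13.19, all below the controls but by only -0.31 ± 0.35 against the pooled spread (limma adjusted p 0.462). Beside these values, 12 of 13 measured B cell markers fell with dose at 6 hr with a median difference of -3.15, 11 of 14 T cell markers fell with a median of -1.38, and all 13 mature neutrophil markers rose with a median of 2.38. The mean of the B cell list, relative to its mean over all arrays, stood at 1.76 without irradiation, 0.04 after 100 cGy and -1.49 after 1050 cGy. None of 16 erythroid markers was called at 6 hr. The part of these cell types in the result was not tested.

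**Figure D1:**
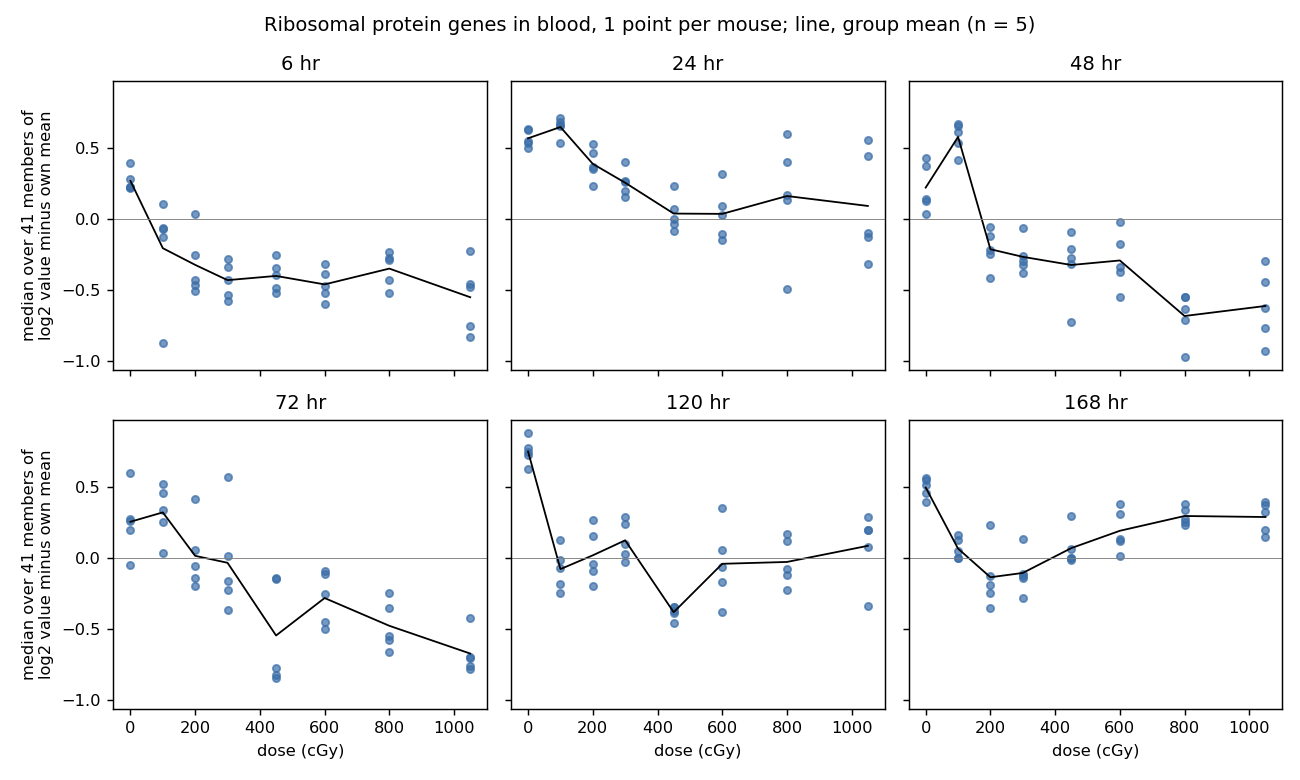
Each point is 1 mouse of the dose and time set, each panel 1 time after irradiation; the horizontal axis is the dose in cGy and the vertical axis the median over the 41 members of the log2 value minus that member's mean over all arrays, with lines through the group means (n = 5). Unirradiated mice average 0.266 at 6 hr and 0.747 at 120 hr; the 100 cGy mice are near or above the controls at 24, 48 and 72 hr and below them at 6, 120 and 168 hr.

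At 24 hr the members again fell with dose, and none was called lower at the lowest dose. With dose 34 members fell and 0 rose (19.8% of all genes fell and 18.9% rose), with a median 600 minus 0 cGy difference of -0.59 against 0.07 over all genes. At 100 cGy 0 members were lower and 1 was higher (1.16% and 5.6% of all genes), Rpl41, the smallest ribosomal protein, by 0.53 ± 0.17. This value is that of its brightest probe set. For 600 minus 0 cGy at 24 hr the probe sets of Rpl41 disagreed. The brighter ones gave 0.34 and 0.18 and the dimmer ones -0.77 and -0.43. Rps18 had the largest fall among the members called, from 12.94, 12.95, 13.01, 12.97 and 13.02 to 11.89, 11.60, 12.46, 11.74 and 11.77, or -1.08 ± 0.26 (limma adjusted p of the slope 7.89e-06). Rpl4, Rpl22, Rpl12 and Rpl8, all large subunit proteins, followed it. Rps24 read 13.62, 13.72, 13.82, 13.59 and 13.78 at 0 cGy and 13.47, 13.29, 13.62, 12.98 and 13.26 at 600 cGy, a difference of -0.38 that did not pass. At this time 12 of 13 B cell markers and 12 of 14 T cell markers fell, with medians of -2.59 and -2.16, and 7 of 16 erythroid markers rose.

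At 48 hr the lowest dose and the doses above it went opposite ways. At 100 cGy 14 members were higher than in unirradiated mice and 1 was lower (17.9% and 18.2% of all genes), with a median of 0.32. Rpl37, a zinc-binding large subunit protein, was highest above control at 1.30 ± 0.30, with 7.90, 8.09, 7.80, 7.51 and 6.65 in the controls and 8.81, 9.20, 9.18, 8.54 and 8.72 after 100 cGy. Its groups did not overlap. Rps19 was higher by 1.03 ± 0.20 (limma adjusted p 3.72e-05) and Rpl14 by 0.92 ± 0.22, while Rpl39, a protein of the peptide exit tunnel, was lower by 0.43. At 200 cGy 22 members were lower (25.7% of all genes), with a median of -0.57.

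Over all doses at 48 hr 37 members fell and 0 rose, against 23.3% and 24% of all genes, and the median difference at 600 cGy was -0.58 (-0.07 over all genes). Rplp2 and Rps28 had a falling slope but lay above the controls at 600 cGy, Rplp2 by 0.04. The order of the members changed from that at 6 hr. The largest changes were now in Rpl22, Rps24 and Rps7. None of these had passed at 6 hr against the pooled spread. All were lower then at 600 cGy within all 5 codes of the array names (-0.74, -0.31 and -0.63 in the group means). At 48 hr Rps24 read 13.67, 13.48, 13.48, 13.18 and 13.27 in the controls and 9.66, 10.35, 10.18, 10.55 and 10.56 at 600 cGy, an 8.92-fold fall of -3.16 ± 0.35 (limma adjusted p 3.35e-15). The groups were far apart, and within the 5 codes of the array names the difference ran from -4.01 to -2.63.

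Rpl22, a large subunit protein that is dispensable for translation but needed for T cell development, read 11.41, 10.88, 10.97, 10.32 and 10.58 at 0 cGy and 7.00, 7.28, 7.42, 8.07 and 7.65 at 600 cGy at 48 hr, a 10.2-fold fall (limma adjusted p 1.72e-17). A second probe set of Rpl22 disagreed: its 600 minus 0 cGy difference was -1.46 at 6 hr, -0.37 at 48 hr and -0.83 at 120 hr, where the brighter one gave -0.74, -3.35 and -3.85. The Rpl22 result therefore holds for 1 probe set. The brighter probe sets of Rps24, Rps14 and Rps7 gave like values within each gene. Rps7, a small subunit protein that also binds Mdm2, read 13.49, 13.04, 13.14, 12.77 and 12.90 at 0 cGy and 10.39, 10.84, 10.80, 10.87 and 10.96 at 600 cGy, a difference of -2.30 ± 0.26. Rpl13a, which is released from the ribosome in the interferon response, read 13.38, 12.99, 13.15, 12.80 and 12.82 against 10.81, 11.01, 11.25, 11.74 and 11.71, with no overlap.

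A few members were higher at 600 cGy at 48 and 72 hr. Rpl37 was 8.85, 9.06, 8.94, 9.01 and 9.05 at 600 cGy at 48 hr, above every control, by 1.39 ± 0.30 (2.63-fold, limma adjusted p 3.34e-05), though its slope over all doses did not pass (adjusted p 0.106). Rps4x read 12.46, 12.58, 13.04, 12.56 and 12.13 at 0 cGy and 12.86, 13.19, 13.27, 12.96 and 12.97 at 600 cGy at 72 hr. These groups overlapped, and the difference of 0.50 ± 0.21 passed for that dose (limma adjusted p 0.0382) while the slope did not (adjusted p 0.891). The dimmer probe set of Rps4x gave -0.81 at this dose and time.

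**Figure D2:**
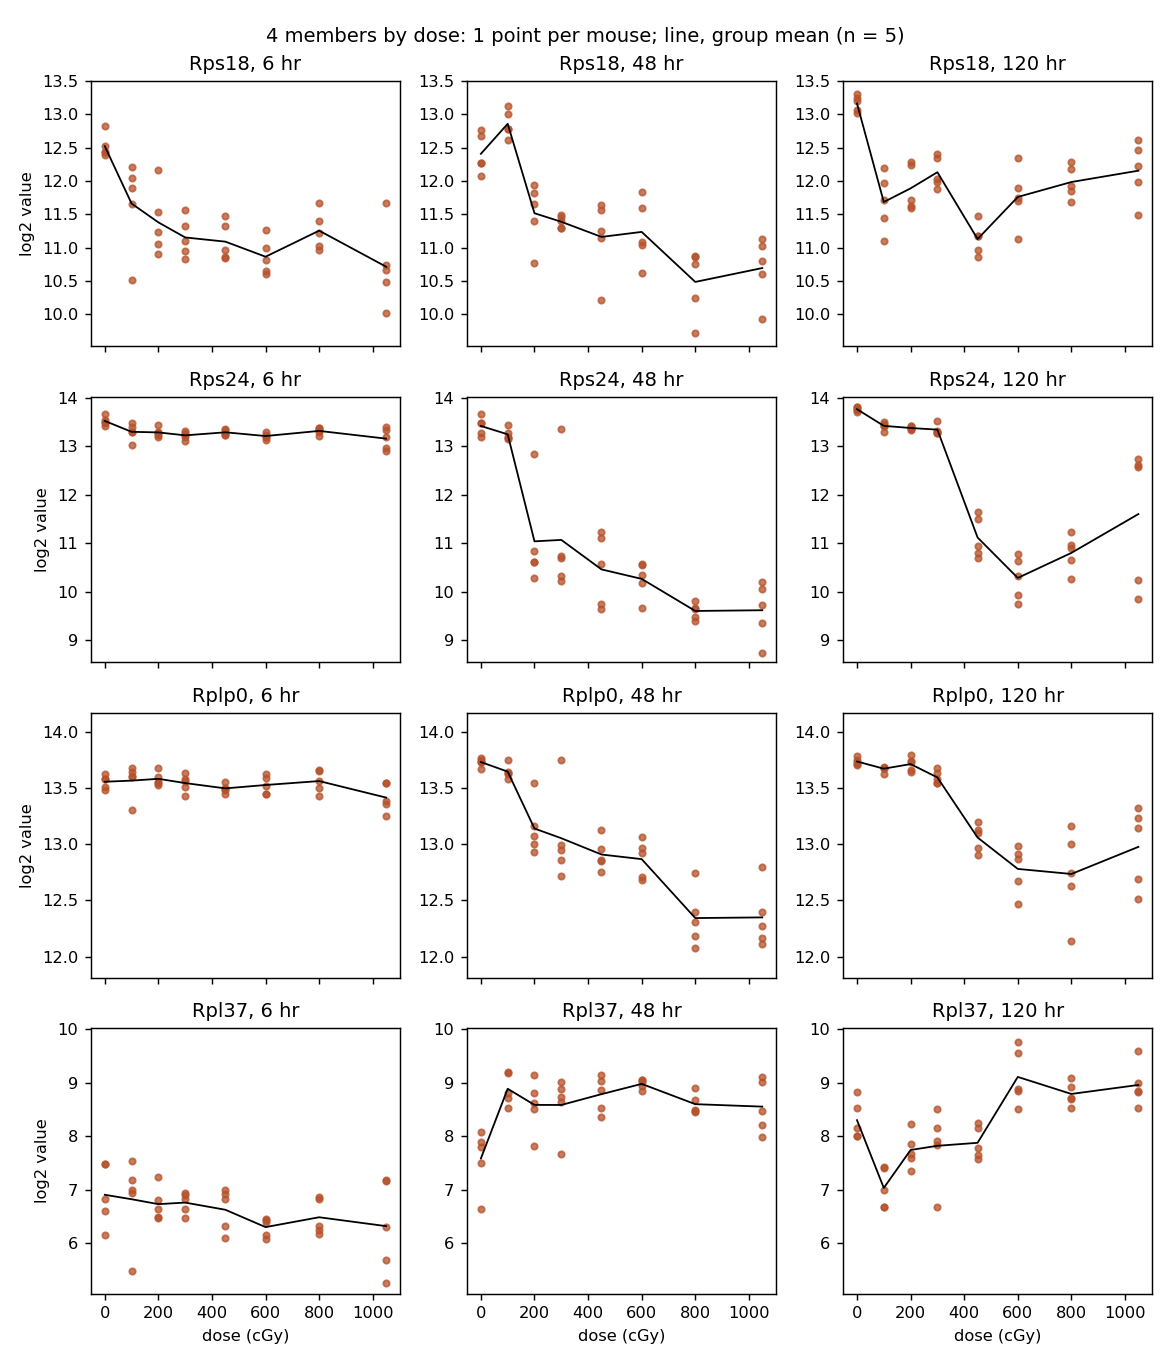
Log2 value of 4 members by dose in cGy at 6, 48 and 120 hr, 1 point per mouse and a line through the group means (n = 5), with 1 vertical scale per gene. Rps18 was lower from 100 cGy upward at 6 hr, Rps24 and Rplp0 did not pass at 6 hr and were lower at 200 cGy and above at 48 hr, and the mean of Rpl37 was above that of its controls at every dose at 48 hr.

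At 72 hr 36 members fell with dose and 0 rose (27.1% and 26.3% of all genes), with a median of -0.68 at 600 cGy against -0.10 over all genes. At 100 cGy 0 were lower and 1 was higher (4.35% and 9.47% of all genes), Rplp2, an acidic stalk protein, by 0.51 ± 0.14. Rplp0, not called at 6 hr, read 13.74, 13.74, 13.53, 13.67 and 13.61 in the controls and 12.73, 12.86, 12.70, 12.77 and 12.42 at 600 cGy. Every irradiated mouse lay below every control, by -0.96 ± 0.12 (limma adjusted p 2.86e-13). Rpl41 read 13.53, 13.65, 13.29, 13.40 and 13.44 at 0 cGy and 12.72, 12.80, 12.36, 12.46 and 12.54 at 600 cGy, also without overlap, and differed by -0.89 ± 0.17. Rpl39 differed by -1.06 ± 0.15. Rpl8, Rplp2, Rps19, Rps28 and Rps6 had a falling slope over all doses and lay above the controls at 600 cGy, Rps19 by 0.01. At 48 and 72 hr 13 and 15 of 16 erythroid markers fell with dose, with medians of -2.48 and -4.13. The B cell list fell at 48 hr in all 13 markers (median -1.61) and at 72 hr in 12 of 13 (median -0.99). The mean of the erythroid list at 72 hr was 0.57 in the controls, 0.84 after 100 cGy and -2.38 after 600 cGy. Alb, a liver transcript, varied widely among mice of the same group at 24 to 72 hr, from 5.49 to 13.7 in the controls at 24 hr. With arrays of Alb of 10 or more left out, 33, 30 and 33 members were called at 24, 48 and 72 hr, rising and falling together. These fits used the 17, 14 and 19 mice that were left, with no mouse at 300 cGy and 24 hr. Shares of all genes were not counted on those mice, so these counts have no background beside them. The part of these cells was not tested.

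Across the first 4 times, 25 of the 41 members fell with dose at each of 6, 24, 48 and 72 hr, as did 5.97% of all genes. The members differed in which blood list they varied with. When only the B cell and erythroid lists were set side by side over the 48 group means, 33 members correlated more with the mean of the B cell list. The other 8 correlated more with that of the erythroid list. The 8 were Rpl39 (Pearson r with the erythroid list 0.834), Rplp0 (0.775), Rpl41 (0.766), Rps24 (0.757), Rpl22 (0.737), Rps14 (0.706), Rps7 (0.666) and Rps9 (0.513). Those closest to the B cell list were Rpl12 (0.81), Rps18 (0.801), Rps20 (0.79) and Rps15 (0.784). Rpl37 was lowest with the erythroid list at -0.676 and had 0.665 with the hepatocyte list and 0.154 with the B cell list. Some others of the 33 also correlated more with the hepatocyte list than with the B cell list. These were Rps28 (0.664 with the hepatocyte list), Rpl6 (0.636), Rps4x (0.607), Rps2 (0.555), Rplp2 (0.525), Rpl14 (0.443) and Rps29 (0.432). The difference between the 3′ and 5′ actin control probe sets, a sign of RNA integrity, had r = 0.676 with the member median over the same groups, and its part was not tested. These are descriptions over 48 group means that share their arrays, doses and times.

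**Figure D3:**
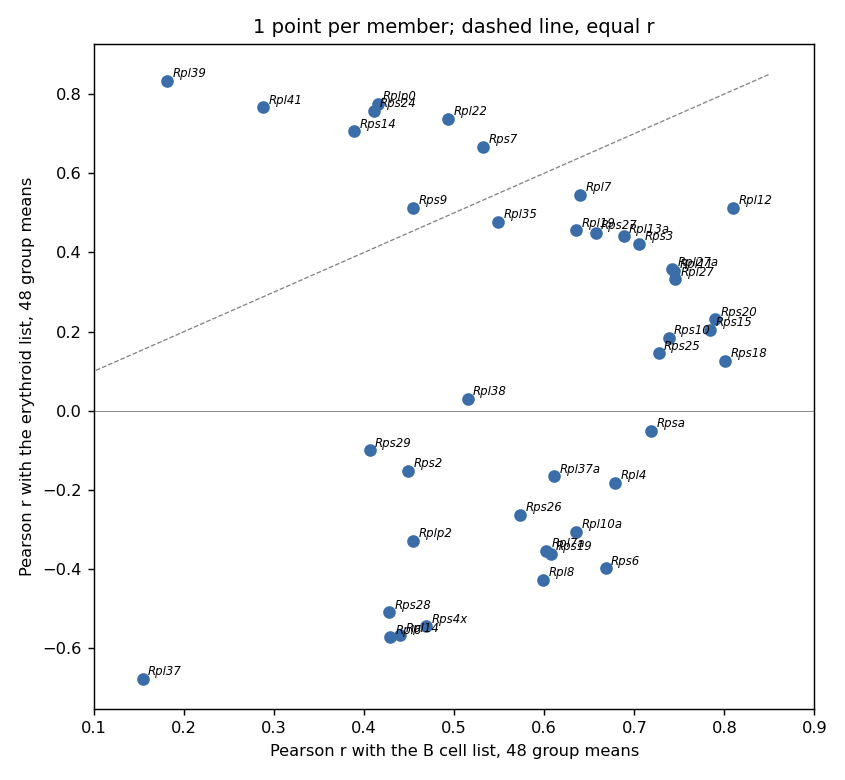
Each point is 1 member; the axes are its Pearson correlation with the mean of the B cell list and of the erythroid list over the 48 group means of the dose and time set, and the dashed line marks equal correlations. The 8 members above the line range from 0.513 to 0.834 on the vertical axis, and Rpl37 is lowest at -0.676.

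Start-site sequences are shown for the members with the largest falls at 6 hr (Rps18, Rps6, Rpsa, Rps4x and Rpl11) and for some of those closer to the erythroid list. They are given because the pyrimidine tract is the shared feature these mRNAs are known for. Windows of 30 bases from RefSeq, GRCm38.p6, run 5′ to 3′ on the gene's strand from 10 bases before the annotated start, and capitals mark the longest run of a C and at least 4 pyrimidines that begins within 10 bases of that start. Where runs were equally long the first is marked, and other runs in a window stay in lower case.
Rps18, chr17:33955646-33955675, minus strand: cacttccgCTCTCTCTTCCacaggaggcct
Rps6, chr4:86857348-86857377, minus strand: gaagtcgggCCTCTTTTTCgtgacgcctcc
Rpsa, chr9:120127756-120127785, plus strand: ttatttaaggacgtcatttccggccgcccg
Rps4x, chrX:102189372-102189401, minus strand: gctgggcggagcaacccaggctccagcgcg
Rpl11, chr4:136053374-136053403, minus strand: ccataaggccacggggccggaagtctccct
Rpl22, chr4:152324426-152324455, plus strand: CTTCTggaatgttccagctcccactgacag
Rps24, chr14:24490668-24490697, plus strand: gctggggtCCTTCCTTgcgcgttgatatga
Rps7, chr12:28635934-28635963, minus strand: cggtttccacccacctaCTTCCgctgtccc
Rplp0, chr5:115559457-115559486, plus strand: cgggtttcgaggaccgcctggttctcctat
Rpl41, chr10:128549149-128549178, minus strand: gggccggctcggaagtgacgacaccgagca
Of the 41 members 36 had a start window. Such a run began near the start in 23 of them (63.9%) and in 34.4% of 27025 genes, and exactly at the annotated start in 8 (22.2%) against 3.01%. Only the gene's own strand was searched, and a longer run holds shorter ones. Rps18 and Rps6, both called at 6 hr, and Rps24, first called at 48 hr, held a run. In Rpsa and Rplp0 no run began within 10 bases of the start. The windows of Rplp0 and Rpl11 hold a run that begins farther downstream, left in lower case. Annotated starts can lie some bases from the start used in blood, and no match says only that no such run begins within 10 bases of the annotated start.

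At 120 hr the 100 cGy group was low again, with the members down in nearly every gene. At that dose 35 members were lower (31.7% of all genes), by a median of -0.81, and at 450 cGy 38 were (22.2%), by -1.05. At 600 cGy the median was -0.76 against -0.04 over all genes. Rps18 read 13.24, 13.02, 13.30, 13.20 and 13.07 in the controls, 11.72, 11.97, 11.10, 11.45 and 12.20 at 100 cGy, and 11.48, 10.97, 11.17, 10.86 and 11.18 at 450 cGy. At 1050 cGy it read 11.49, 12.22, 12.47, 12.62 and 11.98. Every irradiated mouse at these doses lay below every control, and the level was lowest at 450 cGy. The unirradiated mice at 120 hr had the highest member level of any control group in this set, a mean of 0.747 on the scale of the member median against 0.219 to 0.566 at the other times. Among the unirradiated groups 25 members differed between times (50.3% of all genes). Mice were also left out by place in their group, ordered by the code in the array names and then by mouse number. Without the mice in place 4 the count was 11, and without those in place 5 it was 10.

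The slope over doses at 120 hr was split, with 12 members rising and 22 falling (35.4% and 47% of all genes). Of the 12, 8 were still below the controls at 600 cGy, Rpl10a, Rpl14, Rpl7a, Rpl8, Rplp2, Rps19, Rps2 and Rps26. Rps19 read 12.38, 12.18, 12.93, 12.49 and 12.43 at 0 cGy, 11.20, 11.19, 10.99, 10.80 and 11.18 at 450 cGy and 11.76, 12.01, 12.33, 11.91 and 11.48 at 600 cGy. Its 450 cGy mice were all below the controls and the 600 cGy mice overlapped them. Rps14, a protein of the small subunit platform and the gene lost in the 5q- form of myelodysplasia, read 13.78, 13.77, 13.79, 13.74 and 13.77 in the controls and 11.83, 9.74, 11.17, 10.09 and 8.78 at 600 cGy, a 10.9-fold fall of -3.45 ± 0.33 (limma adjusted p 1.66e-18). The controls were tightly grouped and the irradiated mice widely spread, without overlap.

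Rps24 at 300 cGy and 120 hr read 13.30, 13.31, 13.53, 13.28 and 13.28 against 13.81, 13.70, 13.80, 13.74 and 13.76 at 0 cGy. Every irradiated mouse lay below every control, by -0.42 in the group means, which did not pass against the pooled spread (limma adjusted p 0.311). Rps24 was 10.78, 10.32, 10.64, 9.75 and 9.92 at 600 cGy, a fall of -3.48 ± 0.34, and 9.85, 12.73, 12.57, 12.62 and 10.23 at 1050 cGy. The 1050 cGy mice fell into a low pair and a higher group of 3. Rpl11 read 11.99, 11.69, 12.17, 11.79 and 11.67 against 9.62, 9.83, 10.34, 9.65 and 9.71, a 4.08-fold fall at 600 cGy. Rpl12, which lies at the base of the stalk and read dimly on this array, fell from 7.20, 7.13, 7.76, 7.45 and 7.27 to 4.87, 5.11, 5.78, 5.10 and 4.89. For both genes the groups stood apart.

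Markers of liver cells moved with dose at 120 and 168 hr. All 15 measured hepatocyte genes rose with dose at both times, with median differences of 7.04 and 7.95 at 600 cGy, and Alb was 13.53 or more in every mouse given 600 cGy or more at 120 hr, against 4.92 to 10 in the controls. With every array with Alb of 10 or more left out, doses of 0 to 300 cGy remained at these times, and the split of the member slopes became 1 rising and 31 falling at 120 hr and 2 rising and 30 falling at 168 hr. Shares of all genes on the remaining arrays were not counted, so these splits have no background beside them. On those arrays the direction of the slope turned among the named members for Rpl37, Rpl6, Rps4x, Rps28, Rplp2 and Rps19 at both times and for Rps2, Rpsa and Rplp0 at 168 hr. The part of the hepatocyte RNA in the rising slopes was not tested, and the dose range and these markers cannot be told apart.

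At 168 hr the members were lowest at intermediate doses. At 100 cGy 15 were lower (9.96% of all genes), with a median of -0.42. At 200 cGy 30 were lower (29% of all genes), with a median of -0.59, while at 1050 cGy 4 were higher and 13 lower (26.7% and 33.3% of all genes), with a median of -0.17. Rps19 read 12.12, 12.24, 12.18, 11.92 and 11.89 at 0 cGy, 10.92, 11.17, 10.92, 10.80 and 11.70 at 200 cGy and 12.31, 12.06, 11.89, 11.81 and 12.22 at 600 cGy. Rpsa read 12.89, 13.12, 13.05, 12.92 and 12.82 at 0 cGy, 11.66, 11.93, 11.62, 11.63 and 12.54 at 200 cGy and 12.76, 13.07, 12.58, 13.51 and 13.22 at 1050 cGy. In both, all 200 cGy mice were below the controls and the high-dose mice overlapped them.

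By slope, 19 members rose and 11 fell at 168 hr (35.5% and 46.6% of all genes), and 17 rose and 15 fell after quantile normalisation. The median at 600 cGy was -0.23 over the members and -0.07 over all genes. Of the 19, Rpl35, Rpl38, Rpl4, Rpl7a, Rps19 and Rps6 were below the controls at 600 cGy. Rpl37 read 8.10, 8.61, 8.29, 8.16 and 7.90 at 0 cGy and 8.85, 9.20, 9.26, 9.11 and 9.25 at 600 cGy, all above, by 0.92 ± 0.30. Rps2, a core protein at the entry of the mRNA channel, read 12.32, 12.43, 12.36, 12.46 and 12.28 against 12.73, 12.77, 12.62, 12.82 and 12.62, also without overlap, by 0.34 ± 0.10. Rpl6 read 12.10, 12.47, 12.46, 12.42 and 12.24 against 12.77, 12.83, 12.45, 12.76 and 13.09, with overlap. The members that fell most were again Rpl22 (-2.44), Rps24 (-2.16), Rps7 (-1.64), Rpl12 (-1.62) and Rps14 (-1.14). The second probe set of Rpl22 did not fall at 168 hr, at 0.10.

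**Figure D4:**
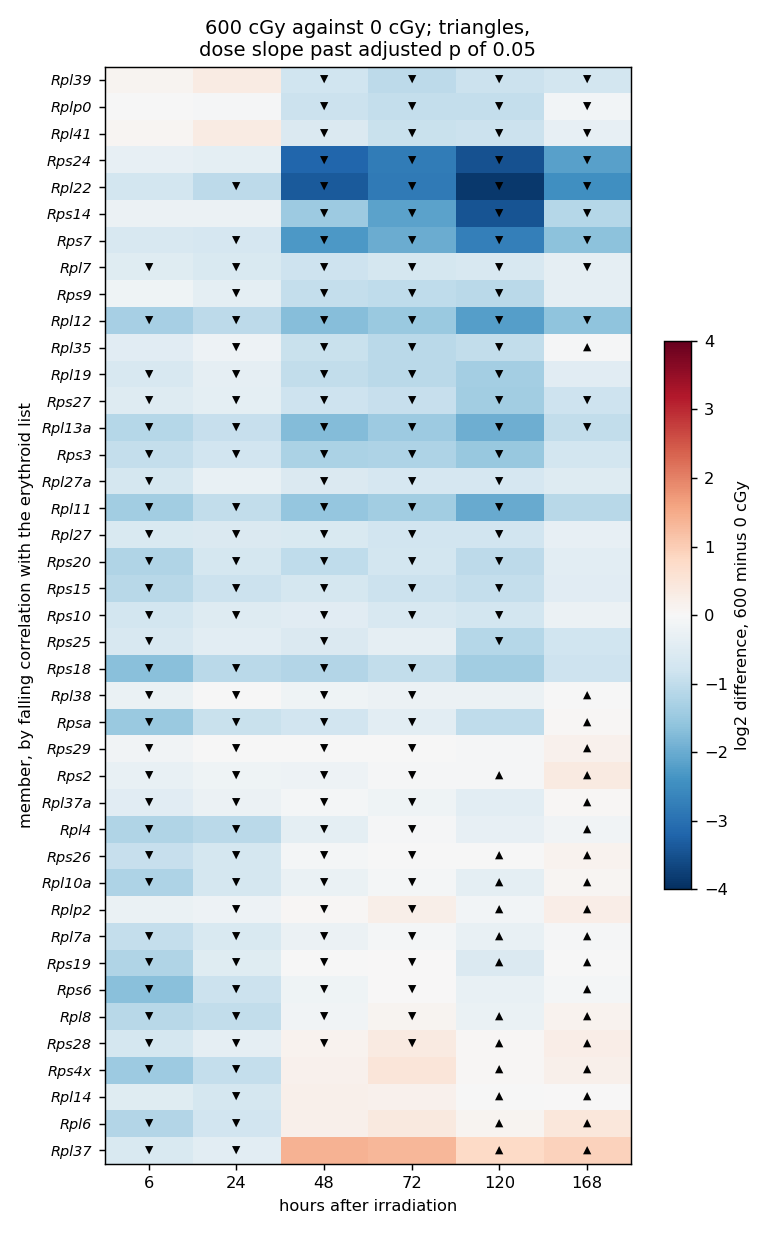
Log2 difference between 600 and 0 cGy for the 41 members (vertical axis, ordered by correlation with the erythroid list) at 6 times (horizontal axis, hours), blue lower and red higher; triangles mark a dose slope that passed. Lower values are broad at 6 hr, deepest at 48 to 120 hr in Rps24, Rpl22, Rps14 and Rps7 (to -3.85), and 19 members have a rising slope at 168 hr. The Rpl22 values are those of its brighter probe set, with which the other disagreed. Dim probe sets of some other members, such as Rps6 and Rps4x, also disagreed at 6 hr.

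Over the 6 times the slope of all 41 members differed between times (92.3% of all genes). Of the members, Rpl12, Rpl13a, Rpl7 and Rps27 fell at all 6 times (3.15% of all genes did). By slope 15 members fell at 72 hr and rose at 168 hr (2.86% of all genes), and none was without a call (2.44% of all genes). The members closest to the mean of the others over the 48 groups were Rps20 (r 0.982), Rps15 (0.979) and Rpl27 (0.978), and those farthest were Rpl37 (0.087), Rpl39 (0.218) and Rps4x (0.372). Outside the members, the genes most like their mean were Nsa2 (0.967), a factor of large subunit assembly, Thoc7 (0.954), Psmb1 (0.942) and Mrpl41 (0.941). The 102 probe sets that name a ribosomal protein gene together with another gene gave 69 falling and 2 rising at 6 hr (16.9% and 16% of all probe sets) and 82 and 4 at 72 hr (27.3% and 25.4%). At 168 hr 37 fell and 45 rose, against 47.7% and 33.2% of all probe sets, so the falling share lay below that of all probe sets.

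At 6 hr 18.5% of all genes fell and 16.2% rose, and at 168 hr 46.6% fell and 35.5% rose, the shares beside which the counts of gene lists stand; at 48 and 72 hr 23.3% and 27.1% fell. Of the 11 measured genes mutated in Diamond-Blackfan anaemia, 8 fell at 6 hr, 11 at 48 and 72 hr, and 3 at 168 hr, where 5 rose. Of the 4 measured exit-tunnel genes, 1 fell at 6 hr and 4 at 48 hr. Of 36 measured ribosome biogenesis genes 22 fell and 1 rose at 6 hr, among them Npm1 (-1.56 ± 0.34), the nucleolar chaperone, and 24 rose and 7 fell at 168 hr, among them Ebna1bp2 (0.85 ± 0.17) and Eif6 (0.72 ± 0.19), both of which act in the making of the large subunit. Of 12 measured elongation and translation genes with the same kind of leader, 10 fell at 6 hr, with Eif3f at -1.53 ± 0.22 and Eef2 at -1.06 ± 0.20, and Eef1b2 fell to -1.85 ± 0.24 at 72 hr. Fau and Rps3a1, ribosomal proteins whose names miss the rule, both fell at 6 hr (-0.76 and -1.05).
The paralogue Rpl22l1, which can replace Rpl22, fell by 1.84 at 6 hr and by 4.07 ± 0.60 at 72 hr, and Rps27l, a p53-induced paralogue of Rps27, rose by 0.58 at 6 hr and 1.30 ± 0.29 at 168 hr.

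The sex and treatment set repeated the 24 hr comparison in other mice. With no agent, 31 members fell and 2 rose with dose at 24 hr (22.9% and 18.3% of all genes), with a median of -0.59. Rps18 in females read 12.99, 13.05, 12.84, 13.02 and 13.14 at 0 cGy and 11.77, 11.97, 12.00, 12.40 and 12.51 at 600 cGy. In males it read 12.46, 12.94, 13.11, 12.90 and 12.88 against 10.91, 10.98, 10.25, 11.74 and 10.84, so that neither sex overlapped, and both together differed by -1.39 ± 0.20. The 2 that rose were Rpl41 (0.50 ± 0.15, limma adjusted p 0.0108) and Rpl39 (0.24). Rpl41 was read on its brightest probe set, and its dimmer ones were lower at 600 cGy at 24 hr in the dose and time set. Rpl41 read 13.57 to 13.89 in control females and 13.86 to 14.13 in those given 600 cGy, with a small overlap, and 13.09 to 13.47 against 13.82 to 14.18 in males, with none.

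At 6 hr the sets of mice differed. The median difference between 600 and 0 cGy was -0.70 in the dose and time set, -0.14 with no agent in the sex and treatment set and -0.08 in the small treatment set. With no agent 5 members fell and 1 rose in the sex and treatment set (12.4% and 7.55% of all genes). Without the mice in place 4 of their groups no member was called. Rps4x fell most, with 13.17, 13.08, 12.99, 12.89 and 12.73 in control females and 12.94, 12.18, 12.57, 11.89 and 11.78 at 600 cGy, which overlapped. In the small treatment set 1 member fell with no agent, Rpl12 by 0.85 (1.86% of all genes fell). None did without the mice in place 1, 4 or 5 of their groups. Across members 30 were lower in both of the larger sets at 6 hr and 25 in all 3. The sets were not compared by a test.

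Under GCSF the decline was present at both times. At 6 hr 29 members fell and 1 rose with dose (23.9% and 28.7% of all genes), with a median of -0.53, and at 24 hr 28 fell and 0 rose (17.4% and 13.2%), with a median of -0.47. At 24 hr 13 fell when arrays with Alb of 10 or more were left out, a count with no share of all genes beside it. Rpl12 (-1.26), Rps18 (-1.16) and Rps4x (-1.13) fell most at 6 hr, and Rpl39 rose by 0.28. At 24 hr Rps18 (-1.08), Rpl22 (-1.02) and Rpl12 (-0.94) led. The slope did not pass as different from that with no agent in any member at 6 hr (0.0161% of all genes, with 26 members at an unadjusted p under 0.05) or at 24 hr (0.00807%, with 4). Without irradiation GCSF changed 0 members at 6 hr (0% of all genes, 1 unadjusted) and 0 at 24 hr (0.549%, 25 unadjusted) by limma. With the spread taken from the compared groups alone, 31 passed at 24 hr, all lower. The share of all genes was not counted for that fit, so the 31 have no background beside them. Under GCSF at 6 hr 12 of 13 B cell markers fell and 13 of 13 neutrophil markers rose with dose.

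LPS without irradiation lowered the members. At 6 hr 35 of 41 were lower than with no agent and 0 higher (20.5% of all genes were lower), with a median of -0.50. Without the mice in place 1 of their groups 20 passed. At 24 hr 27 were lower (12.7% of all genes), with a median of -0.41. The count was 15 without the mice in place 2 and 15 without those in place 4. It was 3 with arrays of Alb of 10 or more left out. Shares of all genes were not counted for these reduced fits. Rps18 at 6 hr read 12.80, 12.65, 12.48, 12.42 and 12.32 in females with no agent and 11.46, 11.62 and 11.83 in the 3 with LPS. In males it read 12.54, 12.17, 12.07, 12.65 and 11.20 against 11.14, 10.43, 11.25, 11.24 and 11.26. The females did not overlap, 1 untreated male lay among the LPS males, and the difference was -0.98 ± 0.22 (limma adjusted p 0.00019). Rpl37 differed by -1.20 ± 0.40 and Rps19 by -0.96. At 6 hr 11 of 13 B cell markers (median -1.70) and 12 of 14 T cell markers were lower and 9 of 13 neutrophil markers higher, and their part was not tested.

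Under LPS the effect of dose was small at 6 hr and a decline at 24 hr. At 6 hr 6 members rose and 1 fell with dose (16.4% and 15.8% of all genes), with a median of 0.02. Among the rising members were Rpl41 (0.49, on its brightest probe set), Rpl39 (0.35) and Rpl35 (0.33), and Rps4x fell by 0.47. The split was 3 and 1 after centring each array and 13 and 1 after quantile normalisation. Without the mice in place 3 of their groups only 1 was called, and without those in place 5 it was 4. In females of this set the member median was higher at 600 than at 0 cGy and in males lower. At 24 hr 23 fell and 0 rose (9.8% and 3.25%), with a median of -0.46, led by Rps18 (-1.17), Rpsa (-1.12) and Rpl12 (-0.99).
The slope differed from that with no agent in 1 member at 6 hr (6.45% of all genes) and 3 at 24 hr (16.5%), Rps27 at both times and Rps3 and Rps9 at 24 hr, in each case higher under LPS. Rps27 gave 0.06 ± 0.02 per 100 cGy at 6 hr (limma adjusted p 0.0476). No member passed at 6 hr without the mice in place 2, 3, 4 or 5. At 24 hr 0 passed without those in place 2 and 1 without those in place 3.

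**Figure D5:**
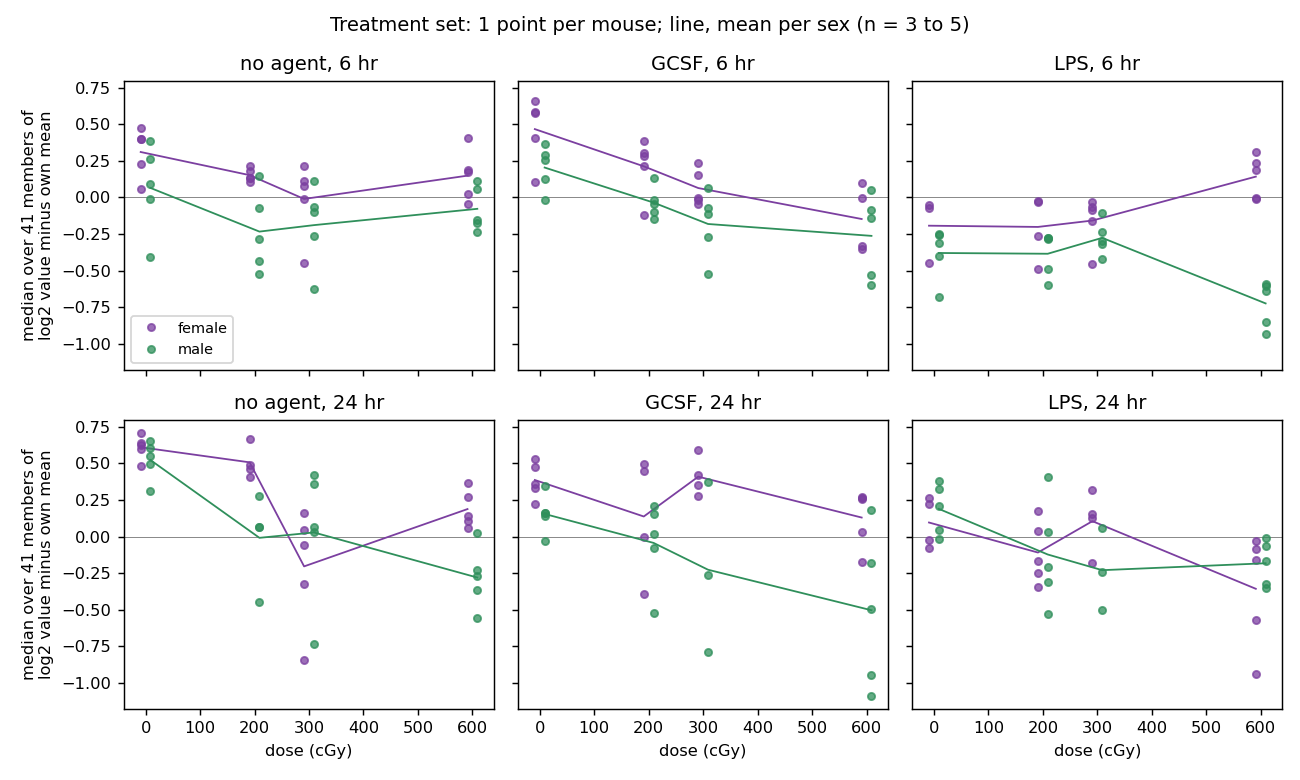
Median over the 41 members of the log2 value minus the member's own mean, against dose in cGy, for females and males with no agent, GCSF or LPS at 6 and 24 hr; 1 point per mouse and lines through the means of each sex (n = 3 to 5). Females lie above males in 20 of the 24 pairs of groups by the median member difference, and the unirradiated LPS groups lie below the unirradiated groups with no agent.

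Over all doses, agents and times of this set, 40 of the 41 members were higher in females than in males and 0 lower (23.2% of all genes were higher and 28.3% lower), with a median of 0.24 against -0.03. Rpl12 differed by 0.55 ± 0.05 (mean 6.19 in females and 5.65 in males). Rpl27a averaged 9.38 in females and 8.92 in males, and Rps18 12.09 and 11.64. Rps9 was the exception, at 0.05 (limma adjusted p 0.142). The X-linked members Rps4x and Rpl39 were higher in females like the others, at 12.31 against 12.08 and 6.75 against 6.64. By pair of groups, the median member difference was above 0 in 20 of 24 and ran from -0.17 to 0.92. Beside this, 12 of 13 B cell markers were higher in females with a median of 0.39, 12 of 13 neutrophil markers lower with a median of -0.54 and 9 of 15 hepatocyte markers lower with a median of -0.61, and their part was not tested.

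In the small treatment set at 6 hr, 600 cGy lowered 20 members and raised 1 under GCSF (14.1% and 10.9% of all genes), with a median of -0.35, and lowered 1 under LPS (9.55%), Rpl12. In this set 5 of 6 unirradiated GCSF mice and 4 of 5 given 600 cGy with GCSF had Alb of 10 or more, and its part was not tested. Rpl12 under GCSF read 6.59, 6.86 and 7.15 as lowest, median and highest of 6 unirradiated mice and 5.57, 5.77, 5.58, 5.25 and 6.12 at 600 cGy, without overlap, and differed by -1.21. Rpl14 followed at -0.97, and Rpl39 was higher by 0.24. No member passed under LPS without the mice in place 2 or 5 of their groups. Without irradiation GCSF changed 0 members (0.549% of all genes) and LPS lowered 21 (16%), with a median of -0.37. Rpsa read 12.54, 13.24 and 13.54 as lowest, median and highest of 6 mice with no agent and 11.87, 12.28 and 12.43 of 6 with LPS, without overlap, a difference of -0.97.

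At 7 days after 150 cGy, 33 members were lower than in unirradiated mice and 1 was higher (33.3% and 33.8% of all genes), with a median of -0.71 against 0.09 over all genes. Rps19 read 13.04, 13.02 and 13.11 in 3 controls and 11.22, 11.63 and 12.06 as lowest, median and highest of 10 irradiated mice, without overlap, and differed by -1.42 ± 0.16. Rpl37 was lower by 2.57 ± 0.66, Rpl12 by 1.80 and Rpl14 by 1.67. Rpl27a was the 1 member that rose, from 7.32, 6.30 and 6.46 in the controls to 7.06, 7.80 and 8.53 as lowest, median and highest after irradiation, by 1.11 ± 0.27 (limma adjusted p 0.00191), and its groups overlapped. Rps24 (-0.26, adjusted p 0.0709) and Rps14 (-0.12, adjusted p 0.321) did not pass. In these mice 12 of 13 B cell markers were lower (median -2.09), all 16 erythroid markers were higher (median 1.24) and 9 of 15 hepatocyte markers were higher, and their part was not tested.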

How the data were processed

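The authors' deposited table holds log2 values, made with RMA in affy per the submitters' processing notes, with versions not given. It covers 22690 probe sets. Of these 64 are array controls, 20380 are annotated with a single gene, 691 with several and 1555 with none. The 20380 were reduced to 12393 genes by keeping each gene's brightest probe set on average. All columns were matched to a sample by their labels, and 0 were left over. Each set of mice was fitted alone in limma 3.58.1 (R 4.3.3) with 1 mean per group and a pooled spread, and p-values were adjusted by Benjamini-Hochberg over all genes at a threshold of 0.05. The labels do not say which of the study's 3 array batches held each mouse. Dose slopes use the group means on dose, for the sex and treatment set averaged over both sexes. The genes named are, for each dose trend, the 5 members with the largest rise and the 5 with the largest fall at 600 cGy among those called, for the other comparisons the 3 and 3 with the largest difference, the stalk genes, Rpsa, Rpl11, Rpl22, Rps19 and Rps4x always, the members most and least like the others, and 4 genes of each pathway list. Others named here were chosen after their values were seen. The members and lists were chosen with earlier results of these data known. Mice carry numbers in the labels, and same-numbered mice did not deviate together (mean correlation 0.017, 0.036, 0.062 and -0.134 in the 4 sets), so they were not treated as pairs. The labels do not say that mice of a group were housed or irradiated separately, so p-values measure the spread between these mice. That spread is pooled over all groups of a set and is not that of the compared groups alone. The tests were tested on simulated data. Alternatives are given in the closing section.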

Additional observations from a re-analysis of the deposited data

Results flagged for a closer look

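Of 103 groups of 4 to 10 mice, 4 held 1 mouse whose member median stood apart from the others of its group by Dixon's criterion, which chance does in about 1 of 20 groups. At 100 cGy and 6 hr 1 mouse read -0.876 where the median of the others was -0.067. At 1050 cGy and 72 hr 1 mouse read -0.427 where the others' median was -0.732. At 450 cGy and 168 hr 1 mouse read 0.293 against a median of 0.0. In the small treatment set at 600 cGy with no agent 1 mouse read 0.237 against 0.46.

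The dose slope differed between times in all 41 members, by the test of the difference of slopes, as it did in 92.3% of all genes. The slope under LPS differed from that with no agent in 1 member at 6 hr (6.45% of all genes) and in 3 members at 24 hr (16.5%), by the interaction test.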

How the results depend on the processing

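The total of members called in each dose trend of the dose and time set stayed within 1.5 times under the alternatives run, but without arrays of Alb of 10 or more the split went from 12 rising and 22 falling to 1 and 31 at 120 hr and from 19 and 11 to 2 and 30 at 168 hr. Shares of all genes were not counted for these fits or for the other alternatives. With the mouse number as a replicate block the trends called 30, 33, 39, 36, 28 and 28 members, and the one count this moved by over 1.5 times was that of slopes differing under LPS at 24 hr, to 1. Leaving out the mice in places 1 to 5 of their groups in turn gave 24 to 32, 26 to 35, 35 to 37, 34 to 36, 31 to 35 and 28 to 31. In the small treatment set a mouse in place 6 was always kept. The counts that moved, with the cause not tested, follow. Unirradiated mice over times gave 8 after quantile normalisation, 38 with only the compared groups fitted, and 10 to 27 leaving out mice. The trend with no agent at 6 hr gave 11 after quantile normalisation, 20 without arrays of Alb of 10 or more, and 0 to 6 leaving out mice. The GCSF trend at 24 hr gave 13 without those arrays. The LPS trend at 6 hr gave 4 without x_at and s_at probe sets, 14 after quantile normalisation, 4 after centring and 1 to 6 leaving out mice. At 0 cGy and 24 hr GCSF gave 31 with only the compared groups fitted, and LPS gave 3 without high Alb arrays and 15 to 26 leaving out mice. LPS at 0 cGy and 6 hr gave 20 to 35 leaving out mice. Slopes differing under LPS at 6 hr numbered 5 after quantile normalisation, 0 after centring, 0 with only the compared groups, 0 without high Alb arrays, 0 with the Gapdh covariate and 0 to 1 leaving out mice. At 24 hr they numbered 12 after quantile normalisation, 1 after centring, 0 without high Alb arrays and 0 to 4 leaving out mice. In the small treatment set 600 cGy gave 0 with no agent and 2 under LPS with only the compared groups, 7 under GCSF without high Alb arrays, where 1 mouse is left at each dose and is assumed to vary like the other groups, and leaving out mice 0 to 1 with no agent and 0 to 1 under LPS. GCSF alone gave 16 there without high Alb arrays, with 1 GCSF mouse left against 3.

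Slopes per 100 cGy changed sign when all probe sets of a gene were averaged for Rps4x at 120 hr (-0.00863) and 168 hr (-0.0112) and for Rpsa at 168 hr (-0.000288). Without arrays of Alb of 10 or more, an alternative chosen after seeing the data that keeps only 0 to 300 cGy, they became at 120 hr -0.076 for Rpl37, -0.21 for Rpl6, -0.23 for Rps4x, -0.13 for Rps28, -0.078 for Rplp2 and -0.27 for Rps19. At 168 hr they became -0.21 for Rpl37, -0.42 for Rpl6, -0.088 for Rps2, -0.14 for Rps28, -0.14 for Rplp2, 0.064 for Rplp0, -0.35 for Rpsa, -0.35 for Rps19 and -0.39 for Rps4x.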
